A study of Mus musculus with 16 samples.

Results

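The collagen genes were followed in the colon of mouse pups born by C-section (CSD) or by vaginal delivery (VD). Their members were all genes of the array named Col, a number, the letter a and a number (such as Col1a1), and 44 such genes were found among the 36870 gene names of the array. All 44 were among the 36711 genes tested, and by the kind of chain they comprised 11 fibrillar collagens, 6 basement membrane collagens and 27 other collagens. Colon RNA of 16 pups of RjOrl:SWISS mice, an outbred stock, was hybridised at weaning on 1-colour Agilent arrays, 1 array per pup. The 8 CSD pups (4 females and 4 males) were taken by hysterectomy and reared by foster mothers that had delivered vaginally, whereas the 8 VD pups (2 females and 6 males) were born vaginally and had their litters exchanged between mothers. No transgene or deletion is named for these mice. The pups came from 4 biological mothers, with mothers 3 and 4 in the CSD group (4 pups each) and mothers 5 and 6 in the VD group (5 and 3 pups), so delivery mode varied only between litters, and the female VD pups were all of mother 5. The arrays lay on 2 slides with 4 CSD and 4 VD pups each. Slide 1 held VD pups 5, 9 and 10 of mother 5 and VD pup 7 of mother 6. Slide 2 held VD pups 4 and 11 of mother 5 and VD pups 6 and 8 of mother 6. Pups of a litter are not separate litters, and the p-values below mainly measure the spread between pups.

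Collagens are proteins of 3 chains wound into a triple helix. Fibrillar collagens, above all types I, III and V, form the tensile fibres of the submucosa and muscle layers of the gut. Type IV forms the sheet under the epithelium and around vessels and muscle cells, type VI forms beaded filaments close to cells, and the fibril-associated collagens with interrupted triple helices (FACIT) sit on the surface of fibrils. In the colon, most of these chains are made by fibroblasts, smooth muscle cells and the cells of vessels, while type XVII is a transmembrane collagen of epithelial cells. The layers of the colon that entered the RNA are not stated, and in such bulk samples fewer cells of a type and less RNA per cell cannot be told apart.

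Values are log2 intensities of the array after background correction and quantile normalization, averaged over the probes of a gene. A probe is called well above background where the scanner software marked it so, which held for 58.7% (VD pup 11) to 64.9% (VD pup 4) of the spots of an array. By this mark, 37 of the 44 collagens were detected on all 16 arrays with at least 1 probe. Of the 92 collagen probes, 56 were detected on all 16 arrays and 14 on 0, and the average of a gene includes its dim probes. Col10a1, a collagen of growth plate cartilage, and Col6a6 were detected on 0 arrays, and 5 others (Col4a3, Col9a1, Col9a3, Col19a1 and Col25a1) on 1 to 11 of the arrays. In these 7 genes all probes therefore lay close to the background on some or all arrays. No collagen spot was saturated. Col2a1, the main fibrillar collagen of cartilage, was well above background on all 16 arrays, with values between 12.67 and 13.07 in CSD pups (median 12.96) and between 12.68 and 13.26 in VD pups (median 12.94). In the same pups the cartilage genes Acan, Matn1 and Matn3 were not detected on every array, and 4 of the 8 genes listed as markers of cartilage and bone were detected on all of them.

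A pair of collagens is shown here by its sequence, because these genes varied together more closely than any other pair of partner chains compared below. Col4a1 and Col4a2 encode the chains of the most widespread type IV collagen and are transcribed in opposite directions from a common region of chromosome 8. In RefSeq (GRCm38.p6) the annotated start of Col4a2 lies at chr8:11312805 on the plus strand and that of Col4a1 at chr8:11312826 on the minus strand, 21 bases apart. The 30 bases at chr8:11312801-11312830 are given on the plus strand, with the stretch from one start to the other in capitals.
Col4a1 and Col4a2 starts: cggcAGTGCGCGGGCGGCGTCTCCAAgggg
The windows from 250 bases before to 50 bases after each start share 78 bases. The stretch holds GGGCGG, the core of a GC box. By these positions and strands the annotated transcripts overlap at their starts. The capitals are therefore the first annotated bases of both transcripts and do not lie between the genes. Among the windows of the RefSeq table, GGGCGG or its reverse CCGCCC was found in 23 of 38 collagen windows (60.5%) and in 35.7% of all 32851 windows, CCAAT or ATTGG in 34.2% and 37.4%, and TATAAA or TTTATA in 13.2% and 13.6%. These are matches of letters on either strand and describe the windows only. They covered 35 of the 44 collagens.

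The first comparison asked which collagens differed between CSD and VD pups at weaning. With limma (delivery mode and sex as fixed effects, mother as a random effect), 0 of the 44 collagens passed a Benjamini-Hochberg adjusted p under 0.05, against 460 of the 36711 genes tested (1.25%). Fits that left out a pup or a litter called between 0 and 2 collagens and between 138 and 2265 of all genes. An unadjusted p under 0.05 was reached by 7 collagens (15.9%), against 14.5% of all genes. This count was 2 without the litter of mother 5, between 2 and 9 over all fits that left out a pup or a litter (12.1% to 21.2% of all genes), and 1 in males only. Of the 7, Col10a1 was detected on 0 arrays. Among genes detected on every array of at least 1 group, 6 of 37 collagens (16.2%) reached it, against 21.4% of 21516 genes. In this set 0 collagens and 449 genes were called. Most differences were small and negative: 33 of the 44 collagens were lower in CSD pups, against 48.3% of all genes, and the median log2 fold change was -0.04 against 0.00. The negative share was 63.6% for fibrillar collagens (7 of 11), 66.7% for basement membrane collagens (4 of 6) and 81.5% for the others (22 of 27), and median log2 fold changes were -0.03, -0.03 and -0.04. This leaning was not the same on the slides. On slide 1 alone 86.4% of the collagens were lower in CSD pups, and on slide 2 alone 43.2%, with 49.0% and 49.2% of all genes. The slides also differed in the litters of their VD pups. Slide and VD litter were therefore not separated in this and later comparisons by slide.

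**Figure D1:**
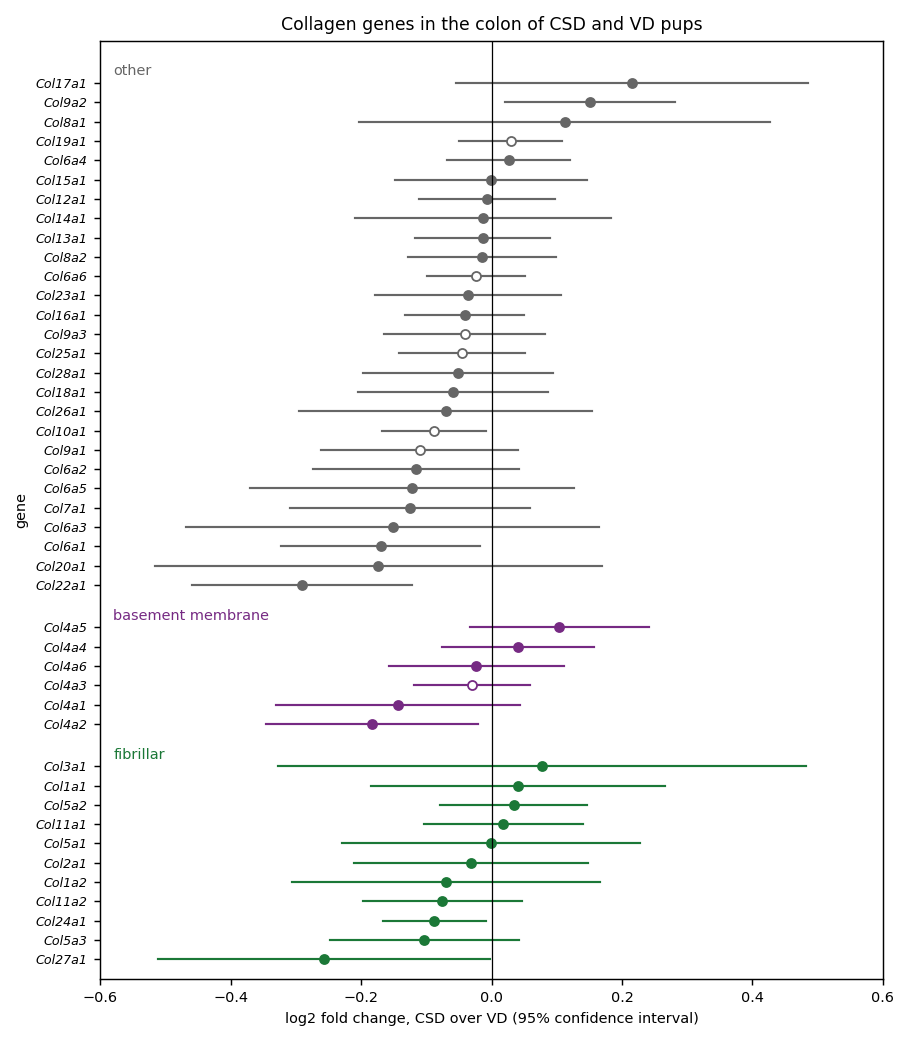
Log2 fold change of each of the 44 collagens in CSD over VD pups (x axis, log2 scale) with its 95% confidence interval, ordered within class (green, fibrillar; purple, basement membrane; grey, other). Open circles mark genes not detected on all 16 arrays, and all 44 intervals lie between 1.5-fold lower and 1.5-fold higher.

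The 95% confidence interval of every one of the 44 collagens lay within 1.5-fold in either direction, and that of 37 of them within 1.3-fold. These intervals refer to the average over the probes of a gene, in which a probe that differs is diluted by those that do not, and to intensities with an offset, which draws differences of dim probes towards 0. They mainly reflect the spread between pups and not that between litters, of which there were 2 per mode, and leaving out a litter moved some values widely. In no collagen did all CSD pups lie apart from all VD pups, which occurred in 0.496% of all genes. The means of the CSD litters were both above or both below those of the VD litters in 16 collagens (36.4%), against 42.0% of all genes. Among genes detected on every array of at least 1 group, this held for 37.8% of the collagens and 47.4% of all genes.

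Among the fibrillar collagens, the abundant chains of type I, III and V were not called. Col1a1 and Col1a2 encode the chains of type I collagen. Col1a1 ranged from 12.42 to 12.83 in CSD pups (median 12.61) and from 12.25 to 12.94 in VD pups (median 12.60), a log2 fold change of 0.04 (SE 0.11, 95% interval -0.18 to 0.27). Its partner Col1a2 ranged from 9.32 to 9.89 in CSD pups (median 9.65) and from 9.33 to 10.10 in VD pups (median 9.68), with a log2 fold change of -0.07 (interval -0.31 to 0.17). Pups of both groups overlapped almost entirely in both genes. Col5a1 and Col5a2, chains of the type V collagen that controls the diameter of type I fibrils, gave log2 fold changes of 0.00 (interval -0.23 to 0.23) and 0.03 (interval -0.08 to 0.15).

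Col3a1, the chain of type III collagen, gave a log2 fold change of 0.08 (SE 0.19) for the average of its 3 probes, but this value has a technical gap in it. The spot of 1 of its dimmer probes was marked as an outlier in CSD pup 3, so the average of that pup rested on the other 2 probes and came out at 11.73, whereas the remaining CSD pups lay between 10.18 and 10.87. The brightest Col3a1 probe (A_51_P515605, mm9 chr1:45405589-45405648) had a value on every array. It ranged from 15.45 to 15.96 in CSD pups (median 15.68) and from 15.54 to 16.03 in VD pups (median 15.78), with a log2 fold change of -0.06 (SE 0.09, interval -0.25 to 0.12). By this probe the groups overlapped.

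Of the minor fibrillar chains, Col24a1 and Col27a1 had unadjusted p under 0.05. Col27a1, a fibrillar collagen best known from cartilage, ranged from 6.58 to 7.41 in CSD pups (median 6.90) and from 6.87 to 7.42 in VD pups (median 7.16). Its log2 fold change was -0.26 (SE 0.12, limma adjusted p = 0.340). Col24a1 differed by -0.09 (SE 0.04, limma adjusted p = 0.281), and Col5a3, the third chain of type V, by -0.10 (interval -0.25 to 0.04). In both genes the ranges overlapped, although 4 CSD pups lay under all VD pups in Col27a1. Leaving out a pup or a litter gave between -0.37 and -0.16 for Col27a1 and between -0.13 and -0.064 for Col24a1.

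In the basement membrane class, Col4a1 and Col4a2 were lower in most CSD pups without being called. Col4a2 ranged from 12.02 to 12.47 in CSD pups (median 12.24) and from 12.22 to 12.64 in VD pups (median 12.49). Its log2 fold change was -0.18 (SE 0.08, interval -0.35 to -0.02, limma adjusted p = 0.271), and 4 of 8 CSD pups lay under all VD pups. Col4a1 ranged from 12.37 to 12.87 in CSD pups (median 12.61) and from 12.53 to 13.02 in VD pups (median 12.76), with a log2 fold change of -0.14 (interval -0.33 to 0.04). Both CSD litter means were lower than both VD litter means in each gene. By slide, however, the difference was -0.29 on slide 1 and -0.07 on slide 2 in Col4a2, and -0.27 and -0.0041 in Col4a1. Without the litter of mother 5 it was -0.064 in Col4a2 and -0.062 in Col4a1. The remaining chains, which are restricted to certain basement membranes, differed less: Col4a5 by 0.10 (interval -0.03 to 0.24), Col4a6 by -0.02 (interval -0.16 to 0.11), Col4a4 by 0.04 (interval -0.08 to 0.16) and Col4a3, close to background, by -0.03.

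Type VI collagen, which anchors cells to the surrounding matrix, showed a like picture. Col6a1 ranged from 14.62 to 14.92 in CSD pups (median 14.74) and from 14.80 to 15.21 in VD pups (median 14.89). Its log2 fold change was -0.17 (SE 0.07, interval -0.32 to -0.02, limma adjusted p = 0.280), with 5 of 8 CSD pups under all VD pups. On slide 1 alone the difference was -0.34 and on slide 2 alone 0.00, with 4 pups in each group, and without the litter of mother 5 it was -0.061. Col6a2 differed by -0.12 (interval -0.27 to 0.04), and Col6a3 by -0.15 (interval -0.47 to 0.16). Of the 7 chains of type VI and the related type XXVIII, 6 were lower in CSD pups, with a median of -0.12. The exception was Col6a4 at 0.03, whose 16 values lay between 7.95 and 8.22. The 6 lower chains include Col6a6, which was detected on 0 arrays. They stand beside 75% of all collagens and 48.3% of all genes that were lower.

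**Figure D2:**
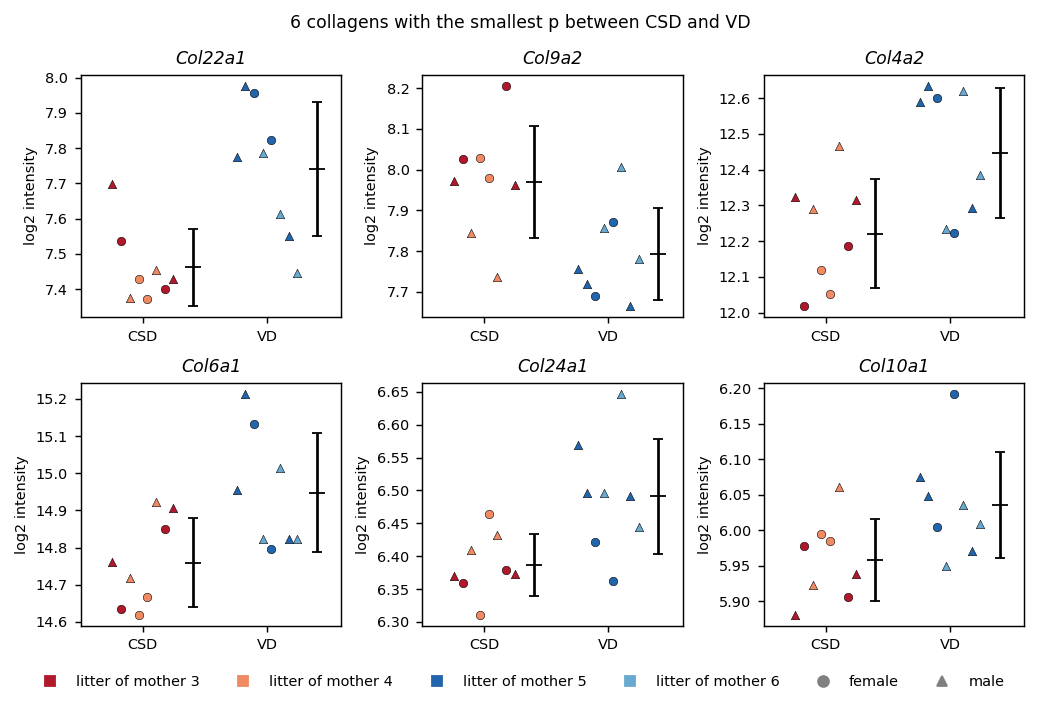
Log2 intensity of the 6 collagens with the smallest p between CSD and VD pups, 1 point per pup (colour, litter; circle, female; triangle, male), with the mean and SD of each group at the right of its points. Pups of both groups overlap in every panel, and the values of Col10a1 lie at background on all arrays.

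Col22a1, a FACIT collagen known from tissue junctions such as those between muscle and tendon, had the smallest p of the 44 genes. It ranged from 7.37 to 7.70 in CSD pups (median 7.43) and from 7.44 to 7.98 in VD pups (median 7.78). The log2 fold change was -0.29 (SE 0.08, interval -0.46 to -0.12), short of the threshold (limma adjusted p = 0.087). In an exact permutation test of the group means, two-sided and without litter or sex, p was 0.00435. The groups overlapped, and 5 of 8 CSD pups lay under all VD pups. Without the litter of mother 5 the difference was -0.13 (limma adjusted p = 0.605). Col22a1 was called, however, with the slide as a fixed effect, and also without CSD pup 8, VD pup 6 or the litter of mother 6. The last of these fits left only the litter of mother 5 in the VD group.

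The average of Col22a1 hid 3 probes that did not behave alike, and the probes were therefore fitted one by one, a step chosen after this had been seen. Of the 56366 probes fitted, 980 were called (1.74%), and among the 92 collagen probes 1 was called, A_51_P145010 of Col22a1 (mm9 chr15:71628920-71628979). It ranged from 8.29 to 8.74 in CSD pups (median 8.44) and from 8.64 to 9.67 in VD pups (median 9.53). Its log2 fold change was -0.85 (SE 0.16, interval -1.20 to -0.51, limma adjusted p = 0.0173 over all probes), and 6 of 8 CSD pups lay under all VD pups. The VD pups were themselves uneven: 5 of them had between 9.52 and 9.67, while VD pups 6, 8 and 11 had between 8.64 and 8.83 and reached into the CSD range. These 3 pups lay on slide 2, where VD pup 4 had a high value, and all 4 VD pups of slide 1 were high. The other probes of Col22a1, at chr15:71699345-71699404 and chr15:71767749-71768433, were also detected on all 16 arrays and differed by -0.04 (SE 0.08) and 0.02 (SE 0.09). Which exons these positions hold was not annotated here for mm9, the build of the probe positions. The called probe stayed below 0 on each slide, at -1.10 on slide 1 and -0.61 on slide 2, and in males alone (-0.69), but in none of these smaller sets did it pass the threshold. It was called in 17 of the 20 fits that left out a pup or a litter, and not without VD pup 4 (adjusted p = 0.0561), the litter of mother 4 (0.114) or the litter of mother 5 (0.219, with a log2 fold change of -0.54).

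**Figure D3:**
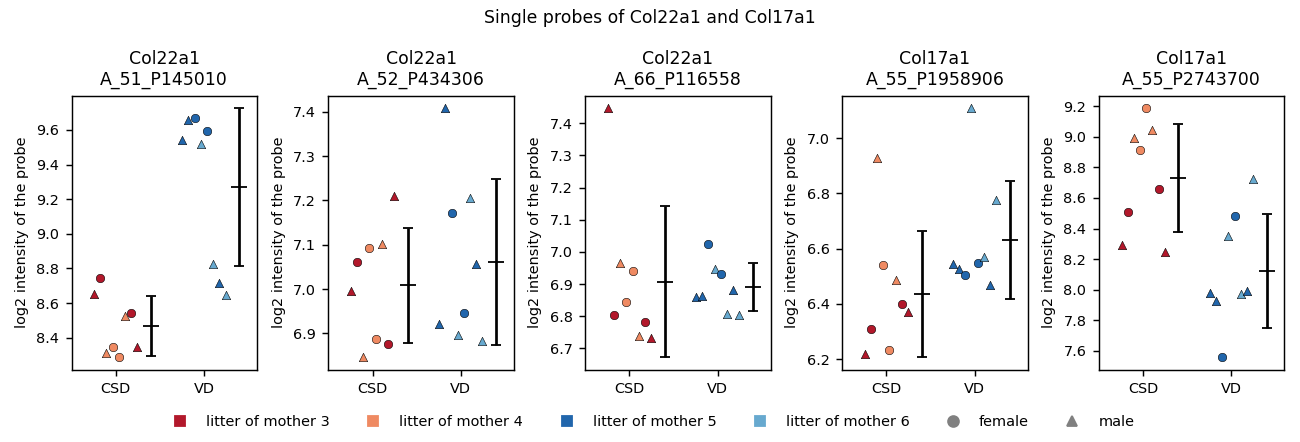
Log2 intensity of the single probes of Col22a1 (3 panels) and Col17a1 (2 panels), 1 point per pup with the mean and SD of each group at the right. The Col22a1 probe A_51_P145010 is lower in CSD pups by 0.85 on the log2 scale with 3 VD pups near the CSD values, the other Col22a1 probes differ by -0.04 and 0.02, and the Col17a1 probes give 0.59 (A_55_P2743700) and -0.16 (A_55_P1958906, above background on 3 CSD arrays).

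Col17a1, the hemidesmosome collagen that holds epithelial cells to the basement membrane, also had probes with different values. Its probes lie close together on chromosome 19. The probe at mm9 chr19:47721454-47721513 ranged from 8.25 to 9.19 in CSD pups (median 8.78) and from 7.56 to 8.73 in VD pups (median 7.99), a log2 fold change of 0.59 (SE 0.18, limma adjusted p = 0.107 over all probes). The probe at chr19:47720894-47720953, which was above background on 3 CSD and 7 VD arrays, gave -0.16 (SE 0.11). The probe with 0.59 was called when the pups of mother 3 or those of mother 6 were left out. In these fits only the other litter of that delivery mode remained. The average of both probes was 0.21 (SE 0.13, limma adjusted p = 0.473), and -0.011 without the litter of mother 5. The litters of 1 delivery mode differed as well: the first probe had litter means of 8.43 and 9.03 in CSD pups and of 7.99 and 8.35 in VD pups.

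Among the remaining FACIT collagens Col9a2, a chain of type IX collagen, was the one with a positive difference and an unadjusted p under 0.05. It ranged from 7.74 to 8.21 in CSD pups (median 7.98) and from 7.67 to 8.01 in VD pups (median 7.77), with a log2 fold change of 0.15 (SE 0.06, limma adjusted p = 0.257), and 3 of 8 CSD pups lay over all VD pups. Without the litter of mother 5 the difference was -0.0020 (limma adjusted p = 0.996). Without that of mother 6, when the VD pups were all of mother 5, Col9a2 differed by 0.22 and was called (limma adjusted p = 0.0269). Its partners Col9a1 and Col9a3 were near background and differed by -0.11 and -0.04. Col12a1 and Col14a1, which bind to the surface of type I fibrils, differed by -0.01 and -0.01, and Col16a1, also a FACIT collagen, by -0.04. For Col12a1 the interval ran from -0.11 to 0.10. Col18a1 and Col15a1, the multiplexins of vessel and epithelial basement membranes, differed by -0.06 and 0.00. Among the short-chain collagens Col8a1, made by smooth muscle and vessels, differed by 0.11 (interval -0.20 to 0.43) and Col8a2 by -0.01. Col7a1, which forms anchoring fibrils, differed by -0.12 (interval -0.31 to 0.06). The transmembrane collagens Col13a1 and Col23a1, which were detected on all arrays, differed by -0.01 (interval -0.12 to 0.09) and -0.04 (interval -0.18 to 0.11), and Col25a1, which was not, by -0.05. Col26a1 differed by -0.07 (interval -0.30 to 0.15). None of these had values that set CSD pups apart from VD pups.

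The second question was how far collagens differed with sex and between litters of the same delivery mode. Between females and males 0 collagens were called, with 22 of all genes called (0.0599%), and 6 collagens reached an unadjusted p under 0.05 (13.6%, against 6.45% of all genes). In females 30 of the 44 were lower (68.2%, against 51.8% of all genes). Col18a1 had the smallest p. It ranged from 11.57 to 12.03 in the 6 females (median 11.74) and from 11.96 to 12.29 in the 10 males (median 12.05), a log2 fold change of -0.30 (SE 0.07, limma adjusted p = 0.314). Females and males overlapped only narrowly. Col8a1 ranged from 10.75 to 11.45 in females (median 11.38) and from 11.12 to 12.13 in males (median 11.73), with a difference of -0.44 (SE 0.15, limma adjusted p = 0.665). Col5a1, Col5a2, Col4a4 and Col4a2 differed by -0.26, -0.12, -0.20 and -0.17, all lower in females. For the delivery by sex interaction 0 collagens were called, as was 1 gene of all those tested (0.00272%), and the smallest p of a collagen was 0.0445, of Col11a2.

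Between the CSD litters 0 collagens were called (0.0872% of all genes), and 4 had an unadjusted p under 0.05 (9.09%, against 7.68%). Col20a1, another FACIT collagen, ranged from 7.57 to 8.21 in the pups of mother 3 and from 8.46 to 8.81 in those of mother 4, so that these litters did not overlap. The log2 fold change was -0.67 (SE 0.15, limma adjusted p = 0.120). This difference within the CSD group was larger than the difference of Col20a1 between CSD and VD pups (-0.17, SE 0.16). Col17a1 had lower values in the litter of mother 3 than in that of mother 4 (-0.42, SE 0.12). These litters did not overlap in Col17a1 either, with 7.26 to 7.53 for mother 3 and 7.71 to 7.96 for mother 4. The share of all genes in which the CSD litters did not overlap was not computed, and nothing is read from these separations. Col3a1 differed by 0.60 (SE 0.22), a value that includes CSD pup 3 with its missing probe. With the outlier spots kept it was 0.41 (SE 0.15), and the brightest probe gave 0.08 (SE 0.12).

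Between the VD litters 0 collagens were called (0.874% of all genes), and 5 had an unadjusted p under 0.05 (11.4%, against 11.5%). Col6a3 came closest to the threshold. It ranged from 9.17 to 9.77 in the 5 pups of mother 5 and from 9.98 to 10.35 in the 3 pups of mother 6, a log2 fold change of -0.63 (SE 0.14, limma adjusted p = 0.0632). Its 3 probes did not differ equally. A_66_P127268 (mm9 chr1:92689602-92690594) gave -1.47 (SE 0.23) and was called over all probes (adjusted p = 0.0133, with 0.915% of all probes called), with values from 9.30 to 9.75 in the litter of mother 6 and from 7.72 to 8.44 in that of mother 5. In the CSD pups this Col6a3 probe was high in pups 3 and 5, both of mother 3 (9.22 and 9.15), and between 8.07 and 8.34 in the others. The brightest Col6a3 probe (chr1:92663663-92663722) gave -0.02 (SE 0.16) between the VD litters, and the remaining probe, A_55_P2719394, gave -0.40 (SE 0.23).

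**Figure D4:**
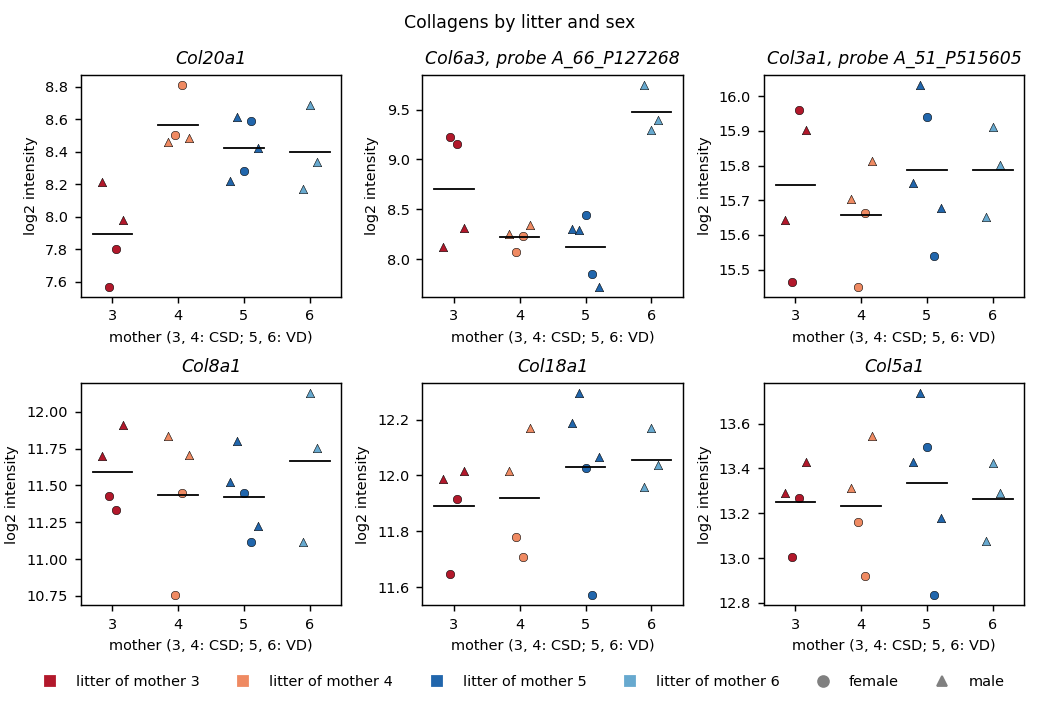
Log2 intensity by litter (mothers 3 and 4, CSD; mothers 5 and 6, VD), 1 point per pup (circle, female; triangle, male), with a line at each litter mean. Col20a1 separates the CSD litters, the Col6a3 probe A_66_P127268 separates the VD litters, the brightest Col3a1 probe separates neither, and Col18a1, Col8a1 and Col5a1 are drawn for the comparison of the sexes.

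Chains that assemble in 1 protein were then compared across the 16 pups, as 9 pairs. Col4a1 and Col4a2 correlated most closely (Pearson r = 0.89, permutation p = 2.00e-05, adjusted over the 9 pairs 0.00015, and Spearman rho = 0.92). Col5a1 and Col5a2 gave r = 0.83 (rho 0.73), Col6a1 and Col6a2 0.82 (rho 0.69), and Col1a1 and Col1a2 0.75 (rho 0.80), and of these 3 the adjusted permutation p was at most 0.00184 for r and 0.00826 for rho. Without the 2 pups farthest from the median of the first chain, r of these 4 pairs was 0.85, 0.74, 0.69 and 0.72. Within CSD pups it was 0.86, 0.80, 0.60 and 0.77, and within VD pups 0.87, 0.87, 0.86 and 0.78. By slide, r was 0.92, 0.72, 0.93 and 0.93 on slide 1 and 0.92, 0.96, 0.63 and 0.71 on slide 2, so that all 4 pairs kept a positive r in each subset.

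The other pairs had lower r over the 16 pups. Col4a5 and Col4a6, neighbours on the X chromosome, gave r = 0.55 (permutation p = 0.0284, adjusted 0.0512) and rho = 0.57 (adjusted 0.0410). Their r was 0.71 within CSD pups and 0.67 within VD pups, but 0.15 on slide 1 and 0.78 on slide 2. Col8a1 and Col8a2 gave 0.40 (rho 0.37), Col4a3 and Col4a4 0.25 (rho 0.17), Col11a1 and Col11a2 0.15 (rho 0.35), and Col9a1 and Col9a2 -0.36 (rho -0.13), none with a permutation p under 0.05. Col4a3 and Col9a1 lay near background. Pups of a litter share a mother and arrays share a slide, so that the 16 points of each pair are not fully independent. Collagens that are not partners were not correlated here, so these values of r are not shown to be particular to partner chains.

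**Figure D5:**
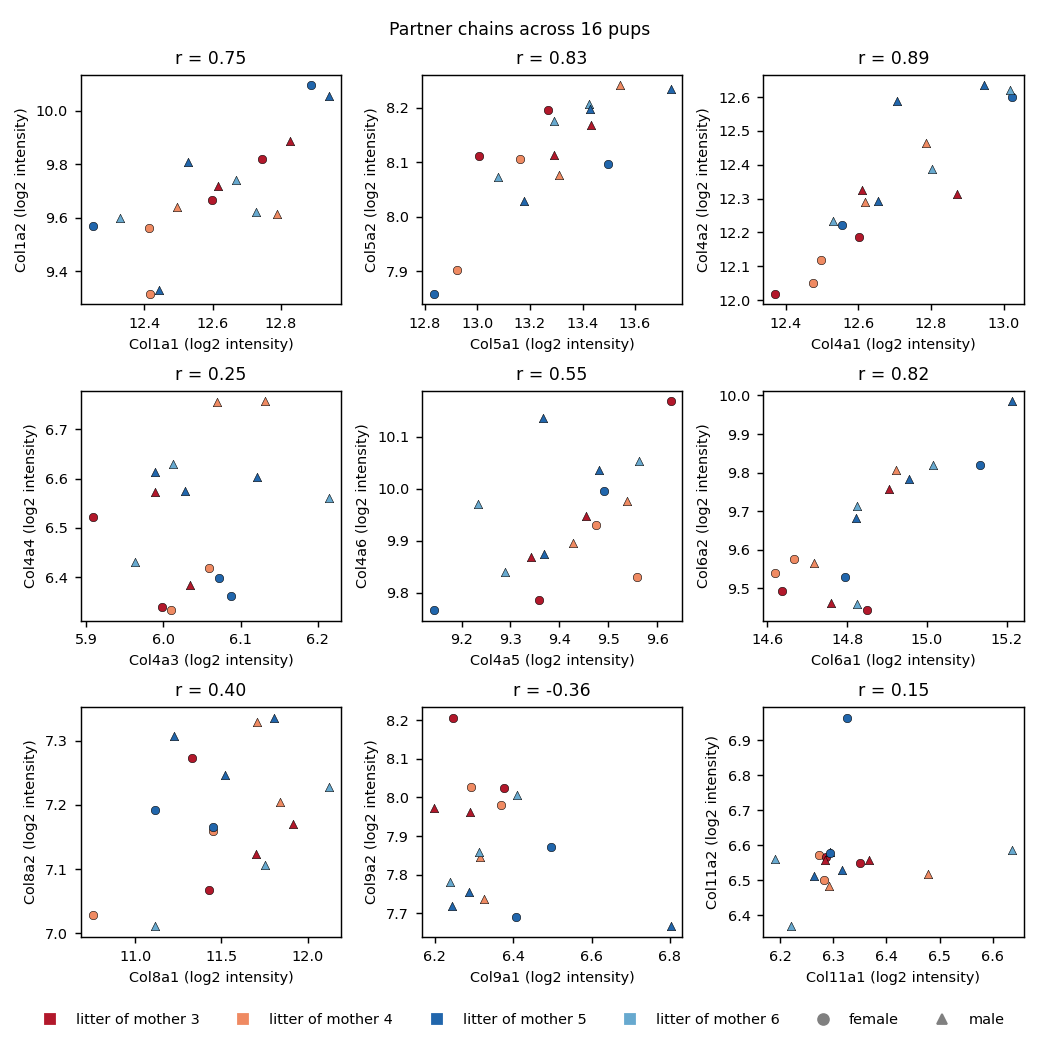
Log2 intensity of partner chains plotted against each other, 1 point per pup (colour, litter; circle, female; triangle, male), with Pearson r over the 16 pups above each panel. The pairs Col4a1 and Col4a2, Col5a1 and Col5a2, Col6a1 and Col6a2, and Col1a1 and Col1a2 have r between 0.75 and 0.89, and the others lie at 0.55 or below.

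Genes that make, process, bind and degrade collagen were examined by lists, and 0 genes of any list were called between CSD and VD pups. Since 1.25% of all genes were called, few calls or none are what lists of this size would hold at the rate of the array, and the counts of lower genes below stand beside 48.3% of all genes. Of 23 genes of collagen biosynthesis (prolyl and lysyl hydroxylases, chaperones and export factors), 9 had a higher mean in CSD pups and 14 a lower mean (median difference -0.01). Mia3, which loads procollagen into transport carriers, ranged from 9.98 to 10.21 in CSD pups (median 10.19) and from 9.87 to 10.12 in VD pups (median 9.97), a difference of 0.14 (SE 0.04, limma adjusted p = 0.099). P4ha3, a prolyl hydroxylase subunit, differed by -0.15 (SE 0.05) and was detected on 8 arrays. Of 16 genes of processing and crosslinking, 12 were lower, with Bmp1, the procollagen C-proteinase, at -0.13 (SE 0.06) and its enhancer Pcolce at -0.15 (SE 0.08). The summed signal of this list leaned the other way, with log2 medians of 15.40 in CSD pups and 15.33 in VD pups.

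Among 17 turnover genes 8 were higher and 9 lower. Pepd, the peptidase that releases proline from collagen fragments, ranged from 12.01 to 12.47 in CSD pups (median 12.30) and from 11.79 to 12.20 in VD pups (median 12.01), a difference of 0.28 (SE 0.08, limma adjusted p = 0.0811). Mmp2, a gelatinase, ranged from 10.97 to 11.30 in CSD pups (median 11.17) and from 11.23 to 11.47 in VD pups (median 11.32), a difference of -0.16 (SE 0.05, limma adjusted p = 0.159). Among 10 receptors, Itga10, the alpha chain of a collagen-binding integrin, had the largest difference. It ranged from 9.17 to 9.94 in CSD pups (median 9.56) and from 8.43 to 9.40 in VD pups (median 8.96), 0.51 higher in CSD pups (SE 0.13, limma adjusted p = 0.0686). Ddr2, a receptor tyrosine kinase for fibrillar collagen, differed by -0.16 (SE 0.05).

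Of 27 other genes of the interstitial matrix, 17 were lower in CSD pups, with Emilin1 at -0.24 (SE 0.07, limma adjusted p = 0.097) and Tnxb at -0.22 (SE 0.10). Of 20 basement membrane genes other than type IV collagen, 12 were lower, with Lama3 at -0.26 (SE 0.08) and the integrin ligand Npnt, detected on 11 arrays, at 0.24 (SE 0.07). Signalling by TGF-beta, the best known inducer of fibrillar collagen genes, was represented by 19 genes, of which 15 were lower in CSD pups with a median of -0.10. Tgfb1 ranged from 7.45 to 7.84 in CSD pups (median 7.63) and from 7.71 to 8.04 in VD pups (median 7.88), a difference of -0.22 (SE 0.06, limma adjusted p = 0.097), and Ltbp3 differed by -0.13 (SE 0.04).

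Markers of the cell types that could carry collagen were read in the same fit, and again 0 were called. Of 12 fibroblast markers 9 were lower in CSD pups (median -0.08), of 12 smooth muscle and pericyte markers 11 (median -0.12), of 10 endothelial markers 8 (median -0.10) and of 9 leukocyte markers 8 (median -0.24), whereas 9 of 12 epithelial markers were higher (median 0.15). The brightest marker of these lists was Dcn, Tagln, Lyve1, Lyz2 and Krt8, in this order, and all markers of these 5 lists were detected on every array. The summed signal of the fibroblast markers ranged from 16.75 to 17.27 on the log2 scale in CSD pups (median 16.91) and from 16.96 to 17.22 in VD pups (median 17.05), and that of smooth muscle from 17.64 to 18.23 (median 17.82) and from 17.85 to 18.29 (median 17.97). Summed epithelial signal ranged from 19.40 to 19.83 (median 19.54) and from 19.45 to 19.76 (median 19.57), so that for the epithelial list the sum and the median of the differences leaned in opposite directions. Thy1, listed here for fibroblasts and also a surface protein of T cells and neurons, had the smallest p of these lists, with values from 12.15 to 12.76 in CSD pups (median 12.31) and from 12.56 to 13.05 in VD pups (median 12.84), a difference of -0.39 (SE 0.10, limma adjusted p = 0.0620). The leaning of the fibroblast and smooth muscle lists was, like that of Col4a1 and Col6a1, not the same on the slides. As the median over a list of each pup's deviation from the gene means, fibroblast markers lay between -0.25 and -0.03 in CSD pups and between -0.07 and 0.28 in VD pups on slide 1, but between -0.18 and 0.26 and between -0.08 and 0.09 on slide 2. Smooth muscle markers lay between -0.26 and 0.04 in CSD pups and between -0.09 and 0.22 in VD pups on slide 1, and between -0.15 and 0.23 and between -0.06 and 0.17 on slide 2. CSD pups were thus mostly the lower ones on slide 1, while on slide 2 their range enclosed that of the VD pups in both lists. Leukocyte markers lay between -0.31 and -0.06 in CSD pups and between -0.04 and 0.17 in VD pups on slide 1. On slide 2 they lay between -0.37 and 0.13 and between -0.08 and 0.47. Endothelial markers lay between -0.20 and 0.01 in CSD pups and between -0.02 and 0.11 in VD pups on slide 1. On slide 2 they lay between -0.09 and 0.09 and between 0.02 and 0.17. In the leukocyte and endothelial lists CSD pups were thus mostly the lower ones on both slides. The part of cell composition in the collagen differences was not tested.

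Markers of glia and neurons (6 of 10 higher, median 0.02), mesothelium (5 of 6 higher, median 0.03), adipocytes (7 of 8 lower, median -0.10), skeletal muscle (6 of 8 lower, median -0.06) and cartilage and bone (5 of 8 higher, median 0.03) were also not called. Adipocyte markers varied widely between pups, and their summed signal ranged from 11.61 to 15.74 in CSD pups and from 13.23 to 15.82 in VD pups.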

How the data were processed

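Colon RNA of 8 CSD and 8 VD pups was measured on 1-colour Agilent arrays. Per array, the authors deposited scanner values (for each spot a mean intensity, a median local background, and marks for outliers and for signal well above background). A second deposited table holds log2 values of 27036 genes (40 of the 44 collagens) for which they transformed and quantile normalized the arrays, removed dim probes and took 1 mean per gene. The submitters' processing notes name limma 3.38. Groups, mothers, sexes and pup numbers are those of the labels, and the slide is that of the scanner output. No label states more than 1 array per pup.

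The members and all gene lists were chosen with earlier results of these data known. From the deposited intensities, normexp background correction (offset 50) was applied to all 62976 spots with limma 3.58.1 in R 4.3.3. Controls and spots marked as outliers were left out, log2 values were quantile normalized, 56366 of 56605 probes, those that exceeded the 5% quantile on 4 or more arrays, were retained, and the mean over the probes of each gene was taken. Where the spot of a probe was left out, the gene average of that pup rests on its other probes, which among collagens occurred in Col3a1 (CSD pup 3) and Col15a1 (CSD pup 9). Delivery mode and sex were fixed effects and the mother was a random effect (duplicateCorrelation, consensus correlation 0.015). With 2 litters per mode this correlation is poorly estimated. P-values were adjusted over all 36711 genes, or over all 56366 probes in the fit of single probes. Sexes, the interaction and litters were fitted with the same tool. Exact permutation tests ran through the 12870 ways to draw 8 of 16 pups, and correlations 100000 permutations. The delivery fit, with and without the mother, was tested on simulated data that held no litter effects. There the fit with the mother as a random effect made more false calls than its nominal rate. The simulation cannot show how the fit behaves with litter effects. Fits of sex, interaction, litters and single probes were not tested in this way.

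Named are the 8 collagens with the smallest p and the chains of types I, III, IV and VI set in the design. So are the members of the 9 pairs and, from each list other than cell type markers, the 2 genes with the smallest p. From the marker lists, Thy1, some cartilage genes and the brightest gene of some lists are named. Single probes, Col20a1, Col6a3, Col18a1 and others were named after their values were seen. Alternatives are given in the closing part. The number of arrays limits the precision. Promoter windows were taken from RefSeq (GRCm38.p6), and the arrays' own annotation (mm9) gave the positions of probes. Plots were drawn with matplotlib 3.10.9.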

Additional observations from a re-analysis of the deposited data

Results flagged for a closer look

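Each of the 44 collagens was examined for a pup far from the other pups of its group, by Dixon's ratio of the gap to the nearest pup over the range of the 8 pups, at its 95% limit. Such a pup was found in 8 of 88 groups. Chance marks about 1 in 20 groups of normal values, the share over all genes was not computed, and nothing is read from this count. Col3a1 in CSD pup 3 was 11.73, against 10.87 in the nearest pup, and this is the pup in which 1 of its 3 probes had no value. Col18a1, lower in females, was 11.57 in VD pup 4, a female, against 11.96 in the nearest VD pup. Col26a1 was 7.70 in VD pup 6, against 7.26. Col11a2, a minor fibrillar chain, was 6.96 in VD pup 5, against 6.59, and Col11a1 was 6.64 in VD pup 8, against 6.33, and 6.48 in CSD pup 6, against 6.37. Col23a1, a transmembrane collagen, was 7.08 in VD pup 4, against 6.85. Col9a1 was 6.80 in VD pup 11, against 6.50, in a gene detected on 11 of 16 arrays. VD pup 11 had the lowest share of spots well above background (58.7%).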

How the results depend on the processing

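Values that follow are log2 fold changes of CSD over VD pups unless named otherwise. Of the 44 collagens, 0 were called under most alternatives. Col22a1 was called with its brightest probe in place of the average (1 collagen), with the slide as a fixed effect (1) and at an adjusted p under 0.1 (1). Leaving out a pup or a litter gave between 0 and 2 called collagens. Col22a1 was called without CSD pup 8 or VD pup 6. Without the litter of mother 6, which left only that of mother 5 in the VD group, Col22a1 and Col9a2 were called. With a pup or a litter left out, the difference of Col22a1 ranged from -0.36 to -0.13 (adjusted p 0.0100 to 0.605). That of Col4a2 ranged from -0.23 to -0.064, of Col4a1 from -0.18 to -0.058 and of Col6a1 from -0.21 to -0.061, smallest without the litter of mother 5 in Col22a1, Col4a2 and Col6a1. In the fit of single probes, added after the data were seen, 0 collagen probes were called with litter means as samples, in males only and on either slide alone, and between 0 and 3 without a pup or a litter. The Col22a1 probe then gave -0.75 with litter means (adjusted p = 0.267), -0.69 in males only (0.339), -1.10 on slide 1 (0.0507) and -0.61 on slide 2 (0.260), and between -0.98 and -0.54 without a pup or a litter. Listed genes, of which 0 were called, gave 1 with probes above background on at least 4 arrays (Itgax), with the brightest probe and with the deposited matrix (P4ha3 in both), and without the mother (Thy1), 5 without sex in the model, 7 at an adjusted p under 0.1, and between 0 and 16 without a pup or a litter. Between the VD litters, 1 collagen was called when probes had to be above background on every array of a group (Col6a3). Of all genes, 460 were called, against 102 and 243 with a normexp offset of 0 and 16, 177 and 164 with the scanner's own correction, 170 in the deposited matrix, 992 without sex, 697 with the replicate block, 1126 at an adjusted p under 0.1, 11 on slide 1, 0 on slide 2, in males only and with litter means, and 138 to 2265 without a pup or a litter. The share of collagens lower in CSD pups was 63.2% and 62.2% with the stricter filters on dim probes, 59.1% in males only, 43.2% on slide 2 and 56.8% to 79.5% without a pup or a litter.

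Col1a1, Col1a2, Col3a1, Col6a1, Col9a2 and Col17a1 changed sign under at least 1 alternative. Col3a1 gave -0.062 with its brightest probe, -0.014 in the deposited matrix and -0.019 on slide 1, Col1a1 -0.15 on slide 1, Col1a2 0.022 in males only and 0.12 on slide 2, and Col6a1 0.0040 on slide 2. Leaving out a pup or a litter gave between -0.18 and 0.34 for Col3a1, -0.041 and 0.13 for Col1a1, -0.20 and 0.061 for Col1a2, -0.0020 and 0.24 for Col9a2, and -0.011 and 0.45 for Col17a1, with the negative values of Col9a2 and Col17a1 found without the litter of mother 5. Among partner chains r moved to 0.15 on slide 1 for Col4a5 and Col4a6, to 0.76 on slide 1 and -0.22 on slide 2 for Col8a1 and Col8a2, and to 0.53 on slide 1 for Col11a1 and Col11a2. The causes of these changes were not tested.

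Pup numbers 5 to 9 occur in both groups but do not pair the pups: deviations from the group means correlated between -0.05 and 0.22 in same-numbered pups, and 2 of 5 correlated best with their own number. With the number as a replicate block in place of the mother, 0 collagens and 1 listed gene (Thy1) were called, and Col22a1 was -0.29 (adjusted p = 0.0667). The number of litters and the dimness of many collagen probes limit what these arrays can show.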
